A study of Saccharomyces cerevisiae with 8 samples.

Results

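The binding map of Rap1 in stationary yeast was described from the 2 peak lists made from cultures kept for 14 d. Rap1 was immunoprecipitated from Saccharomyces cerevisiae and the recovered DNA sequenced (ChIP-seq). A peak is a stretch where the ChIP library held more fragments than its matched input, chromatin taken without antibody. All peaks on nuclear chromosomes in the 2 lists were taken, which gave 659 of the 1223 nuclear peaks in the 4 lists of the series, 95 from repeat 1 and 564 from repeat 2. Membership was fixed by the time of culture and not by any measured value.

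The 14 d group held 4 of the 8 libraries, namely 2 biological repeats of the Rap1 ChIP and the input of each. The other libraries, from cultures of 16 h, were not compared with it. Both repeats used strain JDY86, grown in YPD, a rich glucose medium, at 30 degrees and fixed with formaldehyde. According to the strain description, JDY86 is the MATa parent of a library of histone mutants: it lacks the HHT1-HHF1 pair of histone genes, carries a marked synthetic pair in place of HHT2-HHF2, and is auxotrophic for several nutrients, so both repeats share these alleles. Chromatin came from all cells of the culture, with no separation of quiescent from other cells, and was precipitated with a polyclonal antibody to Rap1 (Abcam ab103520). The label gives a time of culture only, and the share of living or quiescent cells in each repeat was not measured in the files used here.

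Rap1 is an essential DNA-binding protein that recognises a short GC-rich motif. It activates most genes of cytosolic ribosomal proteins and many glycolytic and translation genes, and it coats the telomeric TG repeats, where it recruits silencing and length-control proteins. The DNA at yeast chromosome ends consists of the telomeric repeats, X elements at every end and Y' elements, which carry helicase-like genes, at some of them.

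The repeats differed in depth before any comparison of genes. The genome background pileup, the lowest number of fragments expected over a position and a relative measure of depth, was 1.71 in repeat 1 and 11.7 in repeat 2, a ratio of 6.84. At the summit, the highest point of a peak, the pileup counts the fragments that cover it and had a median of 37 and a minimum of 10 in repeat 1, against a median of 123 and a minimum of 29 in repeat 2. A site missing from the repeat 1 list was not called there, which is not the same as unbound, and the part of depth in each such absence was not tested. The peak names of repeat 2 call it a merge, so several sequencing runs may have been pooled there. The values below are given for each repeat. Peaks were a median of 399 bp wide in repeat 1 and 459 bp wide in repeat 2. The number of peaks per 100 kb ran from 0.268 on chromosome X to 1.85 on VI in repeat 1 and from 3.38 on VIII to 5.94 on XII in repeat 2.

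Fold enrichment, obtained by dividing pileup by local background at the summit after adding 1 to each, set the rank of a peak in its list. In repeat 1 it ran from 3.01 to 494.9 with a median of 11.5, and in repeat 2 from 1.70 to 252 with a median of 8.05. The strongest sites of both maps were chromosome ends. Of the 10 highest peaks, 9 in repeat 1 and 10 in repeat 2 had their summit within 20 kb of an end (terminal peaks), and of the 20 highest peaks 13 did so in each repeat. Terminal peaks were 15 of 95 in repeat 1 (15.8%, exact 95% binomial interval 9.12 to 24.7%) and 59 of 564 in repeat 2 (10.5%, 8.06 to 13.3%). For scale, the windows are 20 kb at each of 32 ends, in a nuclear genome of 12070715 bp. The remaining 80 and 505 peaks are called core peaks.

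**Figure D1:**
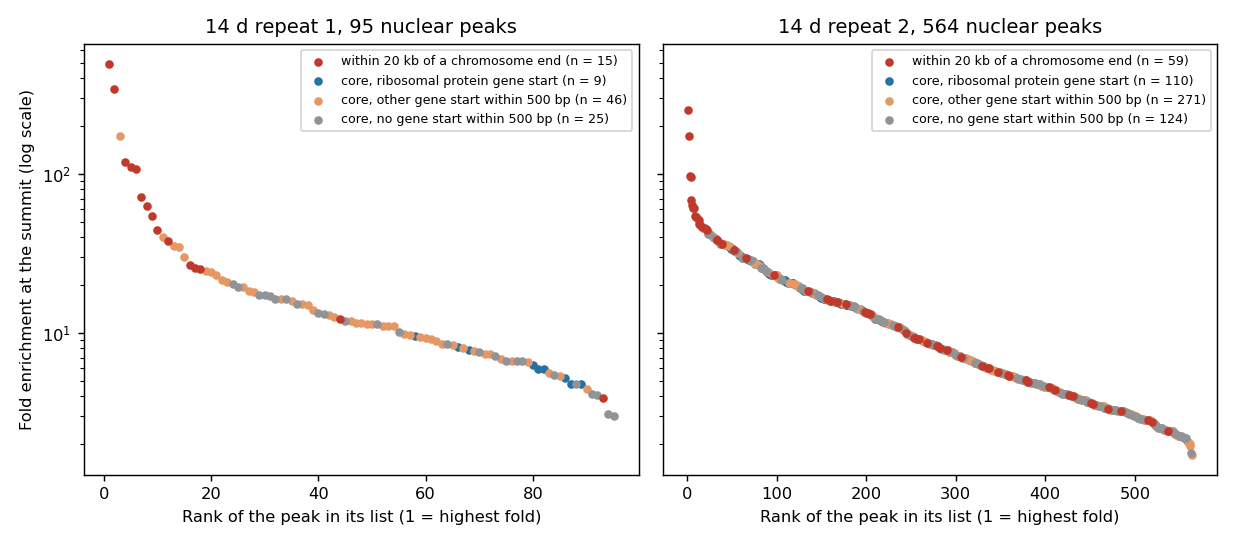
Fold enrichment at the summit (vertical, log scale) of every nuclear peak against its rank in its own list (horizontal), with 14 d repeat 1 on the left and repeat 2 on the right, coloured by position. Terminal peaks hold 9 and 10 of the 10 first ranks, and the peaks at ribosomal protein genes lie in the lower part of the repeat 1 list, at folds of 9.61 or less.

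Core summits lay mostly before genes. A summit within 500 bp of a start codon, on either side, was found for 55 of 80 core peaks in repeat 1 (68.8%, 57.4 to 78.7%) and 381 of 505 in repeat 2 (75.4%, 71.4 to 79.1%), a mean of 72.1% ± 4.74 (SD, n = 2). The intervals cover counting error within each library only, so their overlap is not read as agreement between the cultures. Of these summits 78.2% and 87.7% lay before the nearest start, with median positions of -271 bp and -268 bp, where a negative value is before the start codon. A divergent intergenic stretch, between 2 genes that point away from each other, held 38.8% of the core summits in repeat 1 and 41.8% in repeat 2, and such stretches make up 8.51% of the core genome. Tandem stretches held 35% and 44.2% against 13.2% of the core genome, and convergent stretches, which lie behind both neighbours, held 1.25% and 1.58% against 4.13%. Coding sequence held 25.0% and 12.5% of the summits against 74.2% of the core genome. No test was made of these shares, which show core summits in promoter-bearing DNA in both repeats.

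Most of the core peaks with no start within 500 bp still stood before a gene, only further out. Of 25 such peaks in repeat 1 and 124 in repeat 2, 20 and 96 had a start codon 501 to 1000 bp beyond the summit. With a distance of 1000 bp in place of 500 bp, the mean share of core summits near a start was 96.8%. With 250 bp it was 28.3%, so the share depends on the distance chosen. The nuclear genome holds 6002 such starts over 12070715 bp, so many positions lie this close to a start. The share of all positions that do was not measured, and the shares of summits near a start are not read as enrichment. Near-start peaks had a median fold of 11.1 in repeat 1 and 8.88 in repeat 2, and the others 10.2 and 4.99.

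**Figure D2:**
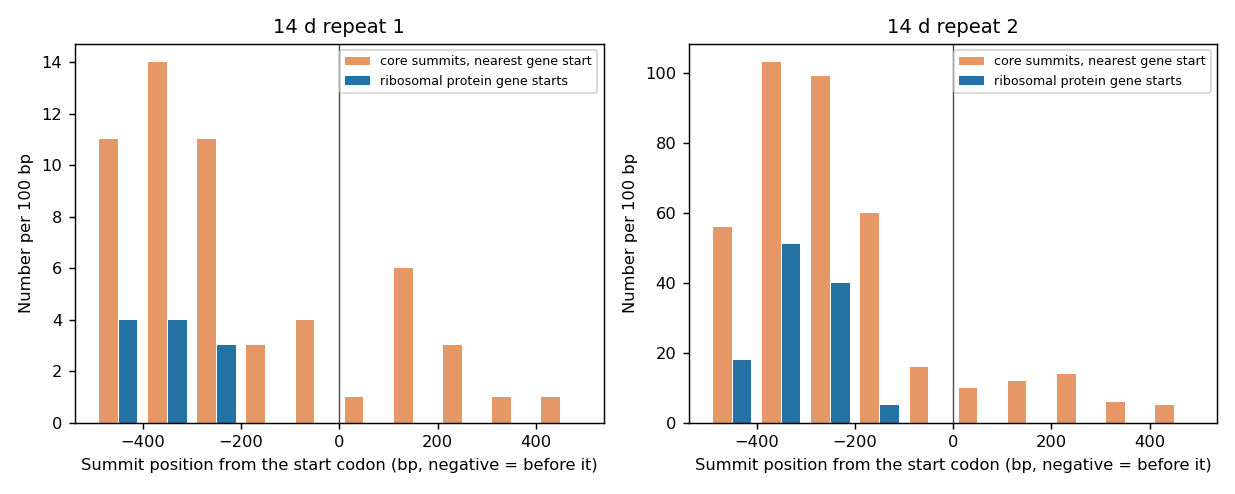
Number of core summits (vertical) per 100 bp of distance from the nearest start codon (horizontal, bp, negative before the start) in 14 d repeat 1 on the left and repeat 2 on the right, with ribosomal protein gene starts shown beside all core summits. Summits concentrate before the start, with medians of -271 and -268 bp, and all 11 and 114 ribosomal protein gene starts have theirs before the start.

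Of 6002 protein-coding genes, 74 (1.23%) had a summit within 500 bp of the start in repeat 1 and 529 (8.81%) in repeat 2, while 68 (1.13%) had one in both. These shares are the background against which each gene list is read. The lists were read by function, and 22 lists were used. Of the genes with a summit, 70.3% in repeat 1 and 65.2% in repeat 2 belonged to none of them.

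Cytosolic ribosomal protein genes stood apart from the background in repeat 2. A summit lay within 500 bp of 114 of 138 genes (82.6%, against 8.81% of all genes), always before the start, at a median of -316.5 bp. The share rests on the distance: it was 18.1% within 250 bp, against 2.95% of all genes, and 94.2% within 1000 bp, against 13.8%. Their fold ran from 3.38 to 47.6 with a median of 18.3, against a median of 8.05 over all peaks. In repeat 1 the same count was 11 of 138 (7.97%, against 1.23% of all genes), with folds of 4.80 to 9.61 and a median of 5.91, below the median of 11.5 over all peaks. Because genes of a divergent pair can share a summit, the 114 genes rested on 110 peaks and the 11 genes on 9 peaks. Both repeats placed a summit at 9 of the genes. The other 2 of repeat 1, RPS8A and RPL31B, had their repeat 2 summits at -674 and -551 bp.

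The strongest of them in repeat 2 was the peak between RPS16A, of the small subunit, and RPL13B, of the large subunit, on chromosome XIII from 551278 to 551873 (R64, as are all positions here), at a fold of 47.6 in repeat 2 and 5.91 in repeat 1. RPL42B, of the large subunit, followed at 45.9 and 9.61 and shared its peak in repeat 2 with CHS7, needed to export chitin synthase. RPL2B had 40.05 and 7.76. RPL16B had 35.3 and 5.91, with summits at -392 and -393 bp, 1 bp apart. Genes listed in repeat 2 alone included RPL23A at 39.1, RPS7A at 35.6 and RPS14B at 33.9. The order of the group differed between the repeats, and RPL42B had the highest fold of it in repeat 1.

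Of the 24 ribosomal protein genes without a repeat 2 summit within 500 bp, 15 had one 500 to 1000 bp before the start. RPL31B had it at -551 bp and a fold of 52.2, which is the second strongest core peak near a start in repeat 2 and overlaps the start of the small open reading frame YLR406C-A. RPS25B followed at -733 bp and 42.2, and RPS26B at -657 bp and 29.8. Others had their nearest summit much further away. It lay at 32364 bp for RPL4A, -33486 bp for RPS22B, -12653 bp for RPL3 and 20254 bp for RPP2B.

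Among core peaks of repeat 2 with a fold of 10 or more, few of those at ribosomal protein genes were listed in repeat 1. With a fold of 20 or more, 6 of 48 at a ribosomal protein gene overlapped a repeat 1 peak (12.5%, exact 95% interval 4.73 to 25.2%). At the start of any other gene it was 27 of 36 (75%, 57.8 to 87.9%). The 6 were the peaks of RPS16A and RPL13B, RPL42B, RPL2B, RPL16B, RPS30A and RPL1B. In narrower bands of fold the counts also lay apart. From 10 to 20 they were 1 of 47 against 16 of 46, at median pileups of 198 and 206.5 fragments. From 20 to 30 they were 1 of 35 against 11 of 16, at 297 and 349.5, and from 30 to 60 they were 5 of 13 against 16 of 20, at 461 and 542.

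With a fold of 10 or more the shares were 7.37% and 52.4%. With a pileup of 300 or more in place of the fold they were 16.1% and 78.6%, and with summits in coding sequence left out 13.04% and 65.4%. Counting a start within 1000 bp as a ribosomal protein gene enlarged that set from 48 to 56 peaks and reduced the other from 36 to 30, and the shares were 16.1% and 86.7%. No test of the gap was made, since peaks of 1 library are not replicates, and the choice of this set was made after the values were seen. Among regions listed in both repeats the 9 at ribosomal protein genes had a median fold of 5.91 in repeat 1 and 35.3 in repeat 2. The 48 at other gene starts had 11.5 and 23.6. The median log2 ratio of repeat 2 over repeat 1 was 2.37 and 0.72, with ranges of 0.87 to 3.06 and -2.83 to 3.36 that overlap. Summit pileups of the 9 peaks in repeat 1 were 12 to 25 fragments, close to the smallest listed, 10. Depth, culture and sequencing all differ between the repeats, and with 1 library of each they cannot be told apart.

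**Figure D3:**
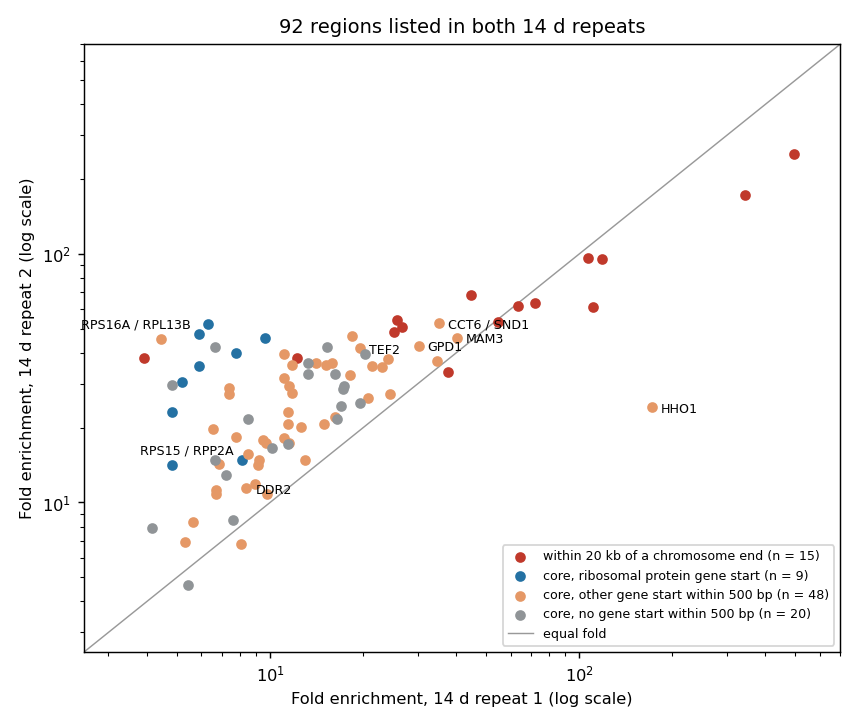
Fold enrichment of the 92 regions listed in both repeats, repeat 1 on the horizontal axis and repeat 2 on the vertical axis (both log scales), coloured by position, with the line of equal fold. The 9 ribosomal protein regions lie above the line, at medians of 5.91 and 35.3. Their log2 ratios of 0.87 to 3.06 fall within the range of other gene starts, -2.83 to 3.36. HHO1 lies below the line at 172.2 and 24.2.

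Genes of translation factors, some of which Rap1 also activates, included 3 with a summit in both repeats. TEF2 and TEF1, the paired genes of elongation factor eEF1A, had folds of 19.5 and 11.1 in repeat 1 and 41.8 and 39.5 in repeat 2, with summits 407 to 441 bp before the start, and the TEF1 value in repeat 1 lay just below the median of that list, 11.5. HYP2, the gene of eIF5A, had 20.8 and 26.2, although its summit also lay in the open reading frame UTR5 that overlaps its promoter. YEF3 and EFB1, further elongation factor genes, had 5.32 and 4.67 in repeat 2 only. The list came to 3 of 39 genes in repeat 1 (7.69%) and 5 of 39 in repeat 2 (12.8%). The second share is near the 8.81% of all genes, so no result about the list is read from it.

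Among glycolytic and fermentation genes, 1 of 27 had a summit in repeat 1 (3.70%) and 6 of 27 in repeat 2 (22.2%). The shares of all genes were 1.23% and 8.81%. The 6 had a median fold of 4.89, against 8.05 over all repeat 2 peaks. GLK1, a glucokinase, had 11.1 and 31.8, at -57 and -78 bp, and shared the site with the open reading frame YCL042W. ENO1, enolase, had 20.2 in repeat 2. The remaining 4 were PGI1 at 5.58, FBA1 at 4.21, ADH3 at 4.00 and PGK1 at 3.49. Of 16 genes that make sugar from acetate and ethanol, the carbon sources left after glucose, 0 had a summit in repeat 1. In repeat 2 it was 5 of 16 (31.2%), against 8.81% of all genes. SIP4, an activator of these genes, led them at 8.88, followed by ACS1, acetyl-CoA synthetase, at 5.39. The 5 folds ran from 2.44 to 8.88 with a median of 4.79, and only that of SIP4 exceeded the median over all repeat 2 peaks, 8.05. Further glycolytic and fermentation genes had their repeat 2 summit outside the 500 bp used, so the count of 6 of 27 rests on the distance. ADH1, alcohol dehydrogenase, had it at -677 bp with a fold of 25.8. TDH3 had it at -518 bp (11.7), CDC19 at -653 bp (10.5) and PDC1 at -631 bp (9.41). PFK2 had it at -537 bp (7.66), GCR1 at -677 bp (4.95) and PYK2 at -834 bp (39.4).

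Stress and heat shock genes had 3 of 55 in repeat 1 (5.45%) and 10 of 55 in repeat 2 (18.2%). The shares of all genes were 1.23% and 8.81%. The 3 were also among the 10, which had a median fold of 7.76, against 8.05 over all repeat 2 peaks. SSA1, among the 10, shared its peak with EFB1 of the translation factors (4.67). GPD1, which makes glycerol under osmotic stress, had 30.2 and 42.7, with summits 6 bp apart. UBI4, polyubiquitin, had 9.47 and 17.8, and DDR2, a stress-induced gene, 8.39 and 11.4. HSP78, a mitochondrial chaperone, had 13.5 and HSP26, a small heat shock protein, 9.53 in repeat 2. Further stress and slow-growth genes had their summits at greater distance. MSN4, an activator of the general stress response, had its summit at -642 bp in repeat 1 and folds of 16.97 and 24.4. HXT5, a hexose transporter of slow growth, had folds of 13.2 and 32.9 at -570 and -600 bp.

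Other lists lay nearer to the background. The shares of the glycolytic, sugar-making and stress lists rest on 6, 5 and 10 genes in repeat 2 and were not tested. Respiration had 1 of 48 in repeat 1 (QCR6, of the cytochrome bc1 complex, at 8.94 and 11.8) and 5 of 48 in repeat 2 (10.4%). Amino acid biosynthesis had 0 of 73 and 7 of 73 (9.59%), led by SER1 at 23.1, whose peak also lay at -214 bp from the ribosomal protein gene RPS30B. The next was HOM6 at 7.15. Plasma membrane transport had 0 and 5 of 38 (13.2%), led by the phosphate transporter gene PHO89 at 15.9, with its summit at -500 bp. Stronger members of this list lay outside the 500 bp. ENA1 had its repeat 2 summit at -654 bp, in a region with folds of 13.3 in repeat 1 and 36.5 in repeat 2. HXT5, given above with the stress genes, is also a member of the transport list. Mitochondrial ribosomal proteins had 0 and 5 of 76 (6.58%), led by YML6 at 21.1, on a peak shared with the cytosolic RPS17A, and ribosome assembly 0 and 3 of 76 (3.95%), led by NSR1 at 11.3. Autophagy had 1 of 37 (2.70%) and 3 of 37 (8.11%), led by ATG27 at 23.2. The ATG27 peak also lay at -530 bp from the ribosomal protein gene RPL17B. ATG19, the receptor of the Cvt pathway, had its summit at -271 bp in repeat 1 (4.43) and just outside the limit, at -521 bp, in repeat 2 (45.5). The proteasome list had 0 and 2 of 34 (5.88%), PRE2 at 29.8, on a peak shared with the ribosomal protein gene RPL11A, and RPN4 at 3.90, and ergosterol synthesis 0 and 1 of 25 (4.00%), ERG5 at 16.4. No summit in either repeat lay within 500 bp of a start codon of the lists of silencing and telomere proteins (25 genes), ribosomal protein gene regulators (11), mating (31), cyclins and cell cycle (23) or COS (12). Within coding sequence, further from the start, SIR3 of the silencing list held a repeat 1 summit at a fold of 4.06 and CDC13, which binds telomeric DNA, a repeat 2 summit at 6.36. TYE7, a regulator of glycolytic genes counted among the regulators, had its nearest summits at -814 and -879 bp with folds of 15.3 and 42.1. CLN3, the first G1 cyclin to act, had one at -912 bp in repeat 1 with folds of 8.50 and 21.7.

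**Figure D4:**
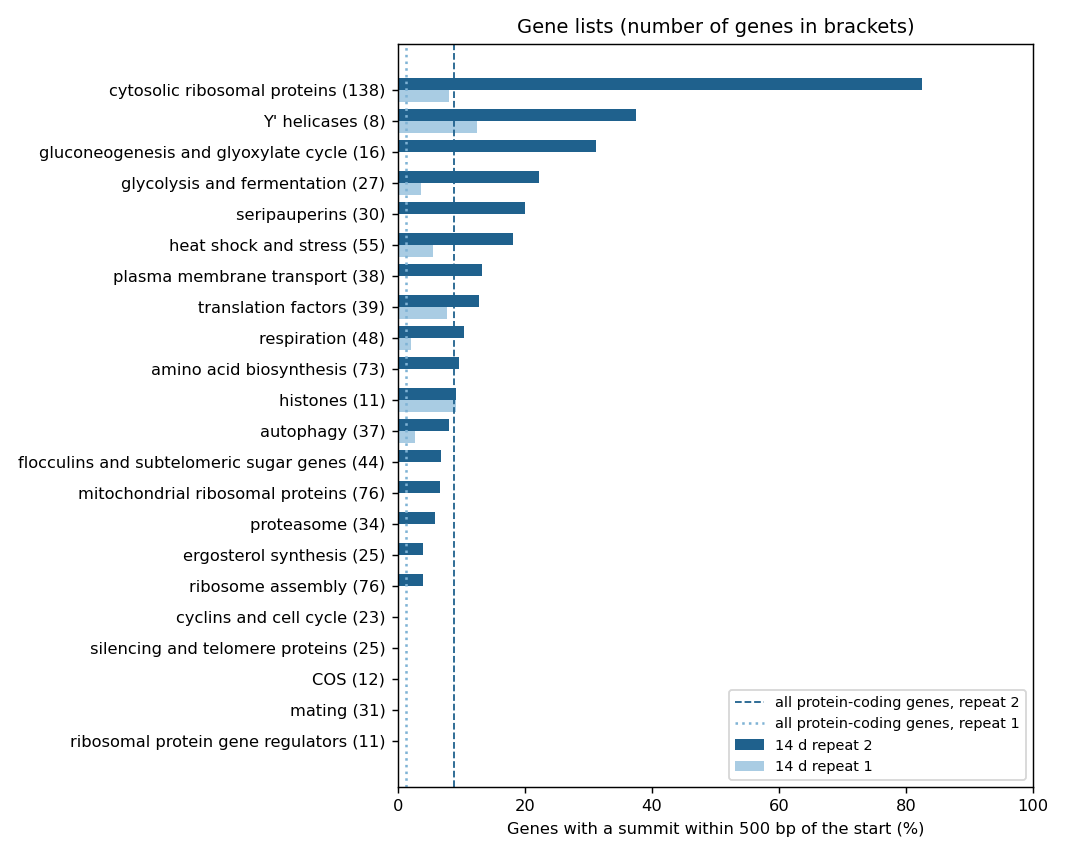
Percent of genes of each list (horizontal) with a summit within 500 bp of the start, in 14 d repeat 1 (light bars) and repeat 2 (dark bars), with the number of genes in brackets and the shares of all protein-coding genes, 1.23% and 8.81%, as vertical lines. Cytosolic ribosomal proteins reach 82.6% in repeat 2, and 5 lists have no bar.

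The highest 25 core peaks near a start in repeat 2 had folds of up to 52.7, and 7 of them had a ribosomal protein gene start within 500 bp. The first was the divergent promoter of CCT6, a subunit of the cytosolic chaperonin, and SND1, an ER targeting factor, on chromosome IV from 835687 to 836412, at 52.7 and in repeat 1 at 35.1. It was joined by MAM3, of mitochondrial morphology, on chromosome XV from 215700 to 216787 (45.9 and 40.3), and by COA2 and GUP2 on chromosome XVI, the former a cytochrome oxidase assembly factor (41.3, repeat 2 only). In repeat 1 the 15 highest core peaks near a start had folds of 15.9 to 172.2, and none had a ribosomal protein gene. The highest of them, HHO1, and those at SHR5, YEL008W, UTR5 and YCR025C had their summits in coding sequence, and the highest between genes was MAM3 at 40.3. They included IXR1, an HMG-domain DNA-binding protein (24.4 in repeat 1 and 27.3 in repeat 2), YHR033W (24.02 and 37.9), SHR5, which acts in Ras palmitoylation (23.1 and 34.99), PMP3, a small plasma membrane protein (16.3 and 22.0), and the open reading frames YIL054W and YIL055C (34.6 and 37.2).

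HHO1, which encodes the linker histone H1, was the exception among core genes. It had the highest core fold of repeat 1, 172.2, with a pileup of 465 fragments, and in repeat 2 a fold of 24.2 with 307 fragments. The peak covered the coding sequence instead of the promoter. It ran from 308836 to 309618 on chromosome XVI in repeat 1 and from 308833 to 309615 in repeat 2, against a gene from 308828 to 309604, so all 4 edges fell within 14 bp of a gene edge. Of the 77 core regions in both lists it was the only 1 whose pileup was higher in repeat 1, the shallower library. What put the edges there was not tested. Among the other peaks, 3 had peak edges within 50 bp of both gene edges in repeat 1, at the open reading frames YCL042W, UTR5 and YOR343C, with folds of 11.1, 20.8 and 11.8.

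Several further peaks of both lists lay in or behind genes and were not at a start. PUT4, the proline permease gene, held a summit in its coding sequence at 20.3 and 39.4, and the nearest start was that of PYK2, a pyruvate kinase isoenzyme, at -835 bp. RRN5, of the RNA polymerase I upstream factor, held one at 17.2 and 28.6. Promoters bound further out than 500 bp included FAS1, fatty acid synthase, at -829 bp (17.4 and 29.5), USV1, a stress regulator, at -556 bp (19.6 and 25.2), and RNR4, ribonucleotide reductase, at -567 bp (16.3 and 32.8). GAT1, a GATA activator of nitrogen genes, had its summit within 500 bp, with folds of 15.2 and 35.7, as did IRC15 at 14.0 and 36.3.

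The repeats located the shared sites closely. Of the 95 peaks of repeat 1, 94 (98.9%) overlapped a repeat 2 peak, while 92 of the 564 peaks of repeat 2 (16.3%) overlapped a repeat 1 peak. This made 92 regions, 77 core and 15 terminal. The summits of a region lay a median of 22 bp apart, and 57 of the 77 core regions had them within 50 bp. The only repeat 1 peak without a partner lay in the coding sequence of SIR3, a silencing protein, on chromosome XII from 1021252 to 1021802, with a fold of 4.06. Core peaks of repeat 2 that overlapped repeat 1 had a median fold of 25.2, and those that did not had 6.18. Spearman's rho of the fold between the repeats was 0.596 over the 92 regions, 0.442 over the 77 core regions and 0.857 over the 15 terminal regions. Regions share their library and depth, so these are descriptions. The fold was higher in repeat 2 in 74 of 77 core regions and in 6 of 15 terminal ones.

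At chromosome ends some telomeric sites ranked at the top of both lists, and peaks were listed at more ends in repeat 2. A terminal peak was present at 13 of 32 ends in repeat 1 and at 32 of 32 in repeat 2. A peak within 1 kb of the end, where the telomeric repeats lie, was present at 5 and 26 ends. The 26 of repeat 2 had a median fold of 11.98, against 8.05 over all peaks of that list. The left end of chromosome III had the highest fold of each list, 494.9 and 252, at summits 205 and 200 bp from the end, with pileups of 1420 and 3208 fragments. The right end of XIV had 343.6 and 172.7, the right end of XI 110.8 and 60.9, and the right end of VIII 106.8 and 96.7. All 3 had summits within 160 bp of the end in both repeats. The lowest top peak of any end in repeat 2 was 3.59, at the right end of XVI.

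Further sites lay a few kb in from the ends. Peaks 5 to 7 kb from the end, where an X element lies at ends that carry a Y' element, had a median fold of 25.7 over 7 peaks in repeat 1 and 44.7 over 14 in repeat 2, and peaks within 1 kb had 110.8 over 5 and 11.98 over 26. The medians of the repeats cover different sites. At the sites listed in both, the 5 within 1 kb had medians of 110.8 in repeat 1 and 96.7 in repeat 2. The 7 at 5 to 7 kb had 25.7 and 50.99. These sites had to pass the shallower repeat 1 list, and over all repeat 2 peaks the order of the medians is the reverse. No order of the 2 positions is therefore read from them. The left arm of XII held a peak with summits 11220 and 11146 bp from the end (118.2 and 95.8) and another at 5681 bp, beside the small open reading frame YLL066W-B (44.7 and 68.5). The right arm of VIII had one at 5684 and 5552 bp, near IMD2 and YHR218W (71.7 and 63.5). The left arm of VI had one at 4707 and 4653 bp (63.2 and 61.5), and the right arm of XII one at 12772 and 12743 bp (54.7 and 53.3). Across these 5 sites the log2 ratio of repeat 2 over repeat 1 ran from -0.30 to 0.62.

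Genes of subtelomeric families were read against the same background, 1.23% and 8.81% of all genes. Y' helicase genes had 1 of 8 in repeat 1 (12.5%), YRF1-3 at 3.91, and 3 of 8 in repeat 2 (37.5%), YRF1-6 at 54.4, YRF1-7 at 44.7 and YRF1-3 at 38.3. The 3 summits lay 334 to 369 bp before their starts. Seripauperin genes, cell wall mannoproteins induced at low oxygen, had 0 of 30 and 6 of 30 (20.0%), with folds of 3.22 to 6.22. Of these, PAU8, PAU16, PAU18 and PAU20 had the summit 330 to 346 bp before the start, and PAU21 and PAU22 had it at -235 and -250 bp. HSP32 and HSP33, members of the DJ-1 family, had 5.67 and 5.99 at -448 and -427 bp. IMA4, a subtelomeric isomaltase gene, had 2.76. The list of flocculins and subtelomeric sugar genes came to 0 and 3 of 44 (6.82%), and its highest member, the ferric reductase family gene FRE8 at 21.5, is a core gene that shares its divergent peak with the ribosomal protein gene RPS0B. Members of the Y' and seripauperin families are near-identical, and how reads matching several copies were assigned is not given in the sources used here, so the copy that carries a peak is uncertain. The same holds for the telomeric peaks.

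**Figure D5:**
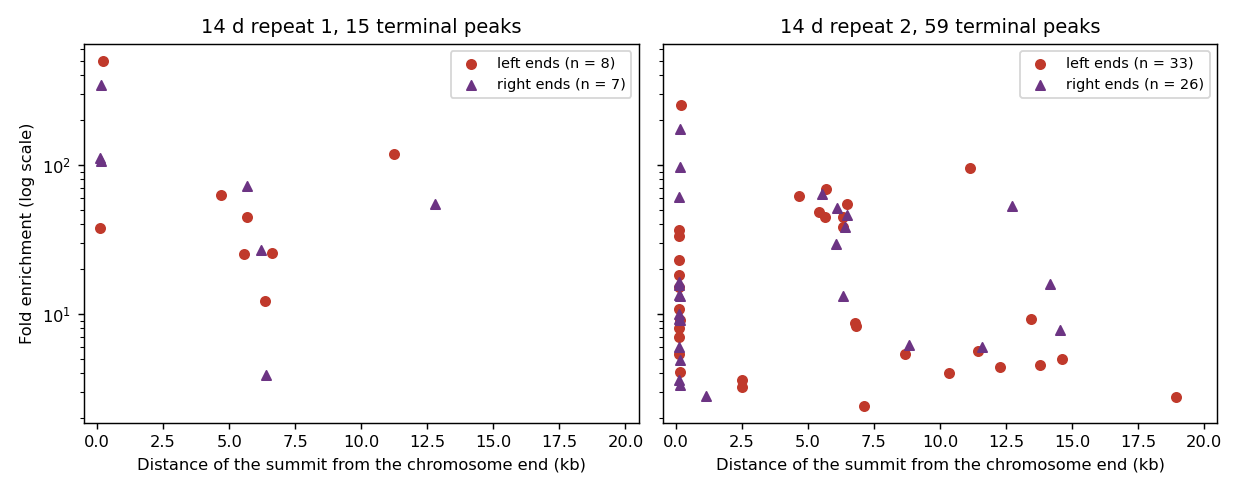
Fold enrichment (vertical, log scale) of each terminal peak against the distance of its summit from the chromosome end (horizontal, kb), for left and right ends, in 14 d repeat 1 (15 peaks) and repeat 2 (59 peaks). Peaks gather within 1 kb and at 5 to 7 kb from the end, with the left end of III highest at 494.9 and 252.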

How the data were processed

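Data were the deposited peak lists of Rap1 ChIP libraries, 1 per library. The authors trimmed paired-end reads with Trim Galore, mapped them with Bowtie2 to R64 and called narrow peaks with MACS2 against the matched input. Versions and settings are not given in the sources used here. For each peak the authors deposited fold enrichment as a ratio to local background, its −log10 p, its −log10 q, a score that is 10 times the −log10 q, and peak positions with a summit offset, printed here counted from 1. The inputs were used in calling the peaks and were not analysed here. The deposited fold set the ranks. Summit pileups were solved from the fold and the −log10 p with a Poisson tail, which assumes that the ChIP pileup was not scaled down. A whole-number pileup was found for 100% of the peaks in both lists at a relative tolerance of 0.0001. No read totals were used.

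Gene starts were start codons of 6002 nuclear protein-coding genes in the RefSeq table of R64, with the strand read from the systematic name. No chromosome lengths were given, so an end was the furthest gene or peak. Terminal peaks had their summit within 20 kb of an end. Peaks were shared when they overlapped by 1 bp. Genes named were the 25 and 15 strongest core promoter peaks of repeats 2 and 1, the 20 best ranked shared core regions, the 10 strongest terminal peaks of each list, the 10 strongest coding peaks of repeat 1, and for each list its members in both repeats and its strongest member. Others named beside these were chosen after their values were seen. The members and lists were chosen with earlier results of these data known, and 3 list patterns were corrected after the files were read. No tests were made, and intervals are exact binomial, for counting error only. The planned motif search was not run, since no sequence was used. The script was tested on simulated data. Python 3.11.15, pandas 2.3.3, numpy 2.4.6, scipy 1.17.1 and matplotlib 3.10.9 were used.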

Additional observations from a re-analysis of the deposited data

Results flagged for a closer look

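Peaks on mitochondrial DNA were left out of the map. The repeat 1 list held 14 of them, with folds of 1.44 to 3.36 and a median of 1.98. They were flagged by a limit of 3 set for a count of 0. That limit takes no account of the difference in depth between the repeats, so it is not a test. The repeat 2 list held 0. These peaks are reported as values, without an explanation.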

How the results depend on the processing

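The share of core summits near a start was 72.1%, and it was 28.34% with 250 bp, 96.77% with 1000 bp and 65.45% with only the 500 bp before the start. A −log10 q of at least 5 moved no result past the limits used. Spearman's rho fell from 0.596 to 0.442 with core regions only. Of other gene start peaks in repeat 2, 52.44% were in repeat 1 at a fold of 10 or more, against 75% at 20 or more. Leaving out a repeat gave 68.75 to 75.45% for core summits near a start, 1.233 to 8.814% for genes with a summit, 7.971 to 82.61% for ribosomal protein genes with a summit, and 10.46 to 15.79% for terminal peaks. The 2 repeats thus set most of the ranges. No paired analysis was possible because no groups were compared. The alternatives of the motif search were not run. For ribosomal protein genes in repeat 2, 250 bp gave 18.12% and 1000 bp 94.2%, against 82.61%. The repeats differ 6.84 times in depth, and the part of depth in the sites missing from repeat 1 was not tested.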

Other observations

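Peaks over the ribosomal DNA on chromosome XII were among the highest by pileup. Repeat 1 listed 4, with folds of 3.01 to 11.5 and a local background 72.8 to 76.0 times the genome background. Repeat 2 listed 2, each over 1 of the 2 reference copies, 7472 and 7362 bp wide, with folds of 17.4 and 17.2 and pileups of 14267 and 14190 fragments. This region is repeated many times in the cell, so its read counts per copy are not known here.

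Genes of untranslated RNAs were also measured. Of 275 tRNA genes, 0 had a repeat 1 summit and 13 (4.73%) a repeat 2 summit within 500 bp. Of 76 snoRNA genes, 0 and 13 (17.1%) did. Of 21 ncRNA genes 0 and 7 (33.3%) did, and of 12 rRNA genes 4 and 5. Among all protein-coding genes, 1.23% in repeat 1 and 8.81% in repeat 2 had a summit within 500 bp of the start. No summit lay inside a tRNA or snoRNA gene in either repeat. No result about a class is read from these shares. The peak at RPR1, the RNA of RNase P, matched the gene edges within 15 bp in repeat 2, with a fold of 3.28.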
